A study of Mus musculus with 4 samples.

Results

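Peritoneal macrophages with many transcripts of the chemokine genes Cxcl1 and Cxcl2 numbered 684 of the 26811 cell barcodes in the matrix. They were chosen on their own counts: at least 500 detected genes, at most 10% mitochondrial UMIs (unique molecular identifiers, each standing for 1 captured transcript), at least 1 UMI of Adgre1, which encodes the macrophage surface protein F4/80, and at least 5 UMIs of Cxcl1 and Cxcl2 together. Cells with any UMI of the B cell gene Cd79a or the T cell genes Cd3d, Cd3e and Cd3g, or with 20 or more UMIs of the neutrophil genes S100a8 and S100a9, were left out. The 684 cells are called Cxcl1/Cxcl2-high below. They were set against 13067 chemokine-negative cells, which met the same limits and had no Cxcl1 or Cxcl2 UMI. Since Cxcl1 and Cxcl2 UMIs chose the cells, every difference from the chemokine-negative cells is given as a description, with no test.

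CXCL1 and CXCL2 are small secreted proteins that bind the receptor CXCR2 and draw neutrophils into tissue. Macrophages transcribe both genes within a short time of sensing microbial products, cell damage or inflammatory cytokines, largely through transcription factors of the NF-kB family, which are held in the cytoplasm by inhibitor proteins until a signal removes these. NF-kB also switches on its own inhibitors, so that cells in such a state carry transcripts of cytokines and of feedback inhibitors side by side. In the peritoneal cavity most resident macrophages are large, long-lived cells that depend on the transcription factor GATA6.

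The cells came from mice aged 24 weeks, in 4 groups of 1 sample each. The groups were C57BL/6 mice on a normal diet, Apoe-/- mice on a normal diet, Apoe-/- mice fed a high-fat diet (HFD) with 21% fat and 0.15% cholesterol for 20 weeks, and Apoe-/- mice after that diet that received 3 mg of an antibody to collagen VI (anti-CVI-mAb) in 200 µL, injected into the peritoneum. The other 3 groups received buffer in the same volume, and HFD mice had returned to a normal diet before the injection. Apoe encodes apolipoprotein E, and the loss is of the whole animal, not of macrophages alone. Viable F4/80+ cells were sorted from cavity washes. The sources used here do not state how many animals went into a sample.

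Barcodes carried the suffixes 1 to 4, taken as 4 libraries, with 6254 to 7338 barcodes and 40321459 to 78083803 UMIs each. The labels and headers do not say which suffix belongs to which sample, so values are given by library and no group is compared with another. Apoe is the gene that the genotypes differ in. Its level in chemokine-negative cells was 30.1, 873, 748 and 30094 UMIs per 1000000 UMIs (CPM) in libraries 1 to 4, and 9.39, 799, 697 and 29079 CPM in Cxcl1/Cxcl2-high cells. Library 4 thus stood far above the others in both sets. The libraries were made with a 10x 3' kit, per the labels, and the sources used here do not state which stretch of Apoe is disrupted. Whether the counted part of the transcript lies in it was not tested, and no library is assigned to a genotype by these values. Between 6 and 12 barcodes were shared by each pair of libraries, and none of these was a Cxcl1/Cxcl2-high cell in both.

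Libraries 1 to 4 held 20, 122, 205 and 337 Cxcl1/Cxcl2-high cells. Among the 1774, 4622, 4402 and 5106 Adgre1-positive cells that met the other limits, they made up 1.13% (exact Clopper-Pearson 95% interval 0.690 to 1.74), 2.64% (2.20 to 3.14), 4.66% (4.05 to 5.32) and 6.60% (5.93 to 7.32). These intervals do not overlap, but they cover counting error only, and with 1 library each the spread between animals is unknown. The cut at 5 UMIs is a point on a continuous range. Just outside it lay 2, 42, 70 and 71 cells with 4 UMIs, and just inside it 4, 18, 45 and 63 cells with 5. The median Cxcl1/Cxcl2-high cell had 9, 9, 8 and 11 UMIs of the chemokines in libraries 1 to 4, and the highest had 69, 81, 94 and 210. In library 4 the 10 highest of 337 cells held 20.0% of the cells' chemokine UMIs, and in library 1 the 10 highest of 20 cells held 76.0%. With sets of such unlike size, these percentages do not compare how concentrated the UMIs were.

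**Figure D1:**
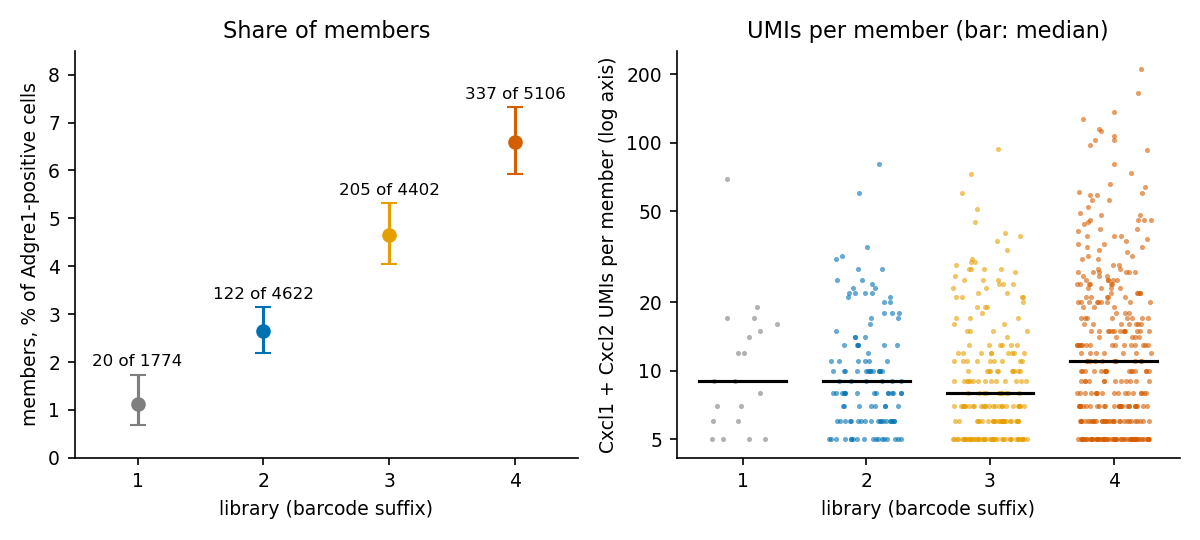
Left, Cxcl1/Cxcl2-high cells as a percentage of Adgre1-positive cells that met the other limits, by library, with exact 95% binomial intervals (counting error only). Right, Cxcl1 plus Cxcl2 UMIs in each Cxcl1/Cxcl2-high cell on a log axis, 1 point per cell, with the median as a bar. The shares run from 1.13% in library 1 to 6.60% in library 4, and most cells in every library lie below 20 UMIs.

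Total depth differed between the sets and can add to who passes a cut in raw UMIs. Median UMIs per cell were 10894.5, 14751, 15023 and 14107 in Cxcl1/Cxcl2-high cells of libraries 1 to 4 and 7779, 11976.5, 13594 and 12543 in chemokine-negative cells. The median mitochondrial share was 3.84 to 4.36% in the former and 3.61 to 5.2% in the latter. After each cell was thinned to 3000 UMIs, 3.79, 5.67, 9.61 and 11.7% of the Adgre1-positive cells still had a Cxcl1 or Cxcl2 UMI (6.31, 13.1, 21.0 and 23.4% before thinning), so the libraries kept their order. Free RNA can place chemokine UMIs in cells that do not express them, and B cells served as the background. Thinned in the same way, 0.357, 0.550, 0.392 and 2.44% of B cells had such a UMI, at median depths of 9035, 7020.5, 4757 and 6312.5 UMIs against 7813.5, 12147.5, 13841.5 and 12818.5 in the Adgre1-positive cells. No B cell reached 5 UMIs: 0 of 585, 574, 304 and 270 cells, which allows shares of up to 3 counts of the total, or 0.513, 0.523, 0.987 and 1.11%.

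Cxcl2 supplied most of the chemokine UMIs. Cxcl1/Cxcl2-high cells held 219, 1413, 2290 and 5503 UMIs of Cxcl2 and 44, 53, 213 and 881 UMIs of Cxcl1 in libraries 1 to 4. Cxcl2 UMIs per Cxcl1 UMI came to 4.98, 26.7, 10.8 and 6.25, which makes library 2 the one with least Cxcl1 for its Cxcl2. Both genes were detected in 5, 19, 46 and 128 cells, and only Cxcl2 in 15, 103, 159 and 208. A cell with Cxcl1 but no Cxcl2 UMI occurred 1 time, in library 4. The rule is thus in practice a rule on Cxcl2, with Cxcl1 seen in 25, 15.6, 22.4 and 38.0% of the cells it chose.

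The genes are neighbours on mouse chromosome 5, at 90891241 to 90893115 for Cxcl1 and 90903871 to 90905938 for Cxcl2 (GENCODE M21, GRCm38, plus strand). The 250 bases before the start site are shown for both, and for Il6, Nfkbia and Tnfaip3, 3 genes of the same signalling pathway described below, because these windows hold, on either strand, the decamer made of GGG, any 2 bases and TTTCC, a form of the NF-kB site. They run 5' to 3' on the strand of the gene and come from RefSeq on GRCm38.p6, with matches in capitals.
Cxcl1 chr5:90890995-90891244 (plus strand): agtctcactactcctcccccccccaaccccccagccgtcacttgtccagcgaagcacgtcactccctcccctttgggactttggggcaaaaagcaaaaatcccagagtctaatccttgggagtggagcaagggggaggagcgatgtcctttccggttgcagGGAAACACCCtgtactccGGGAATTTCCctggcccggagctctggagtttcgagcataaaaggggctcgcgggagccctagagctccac
Cxcl2 chr5:90903649-90903898 (plus strand): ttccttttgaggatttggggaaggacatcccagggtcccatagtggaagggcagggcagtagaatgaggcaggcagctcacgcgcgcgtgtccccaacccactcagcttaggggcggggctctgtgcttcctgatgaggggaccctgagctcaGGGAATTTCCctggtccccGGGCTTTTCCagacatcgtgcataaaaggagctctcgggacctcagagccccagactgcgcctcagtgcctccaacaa
Il6 chr5:30012864-30013113 (plus strand): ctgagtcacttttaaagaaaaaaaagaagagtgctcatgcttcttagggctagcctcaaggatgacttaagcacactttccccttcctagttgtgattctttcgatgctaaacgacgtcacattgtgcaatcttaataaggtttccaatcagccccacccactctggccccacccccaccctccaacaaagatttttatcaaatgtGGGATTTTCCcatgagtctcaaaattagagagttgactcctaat
Nfkbia chr12:55492648-55492897 (minus strand): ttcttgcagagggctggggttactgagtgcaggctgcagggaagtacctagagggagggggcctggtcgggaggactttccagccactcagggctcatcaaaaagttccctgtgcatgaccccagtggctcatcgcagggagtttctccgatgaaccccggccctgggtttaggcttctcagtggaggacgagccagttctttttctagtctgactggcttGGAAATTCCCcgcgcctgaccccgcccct
Tnfaip3 chr10:19015411-19015660 (minus strand): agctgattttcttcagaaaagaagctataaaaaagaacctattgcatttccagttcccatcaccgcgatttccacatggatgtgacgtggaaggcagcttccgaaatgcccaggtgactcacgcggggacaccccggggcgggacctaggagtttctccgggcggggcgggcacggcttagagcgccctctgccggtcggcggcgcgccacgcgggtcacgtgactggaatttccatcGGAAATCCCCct
Cxcl1 and Cxcl2 each held 2 matches. Those of Cxcl1 began 89 and 71 bases before the start site, and those of Cxcl2 97 and 78 bases before it. Il6, Nfkbia and Tnfaip3 held 1 match each, which began 44, 29 and 12 bases before the RefSeq start site. For Tnfaip3 the other of its 2 listed start sites had no match. All these start sites are those of RefSeq, and GENCODE can differ. By GENCODE, Tnfaip3 spans 19000910 to 19015657 on the minus strand, so nearly all of its window with the match lies inside the gene. The Cxcl2 window also runs past the GENCODE start given above. Of all 32851 windows of this kind, 1.41% held the decamer. Windows were used for Cxcl1, Cxcl2 and 9 of the 11 genes named by the size rule below (all but Egr1 and Nfkbiz), and among those 9 genes Tnfaip3 alone held a match. Of 4 further genes looked up, Il6 and Nfkbia held a match and Acod1 and Tnf did not. A form of the AP-1 site, TGA, any base and TCA, which 6.75% of all windows held, was found for Il6, Nfkbie and Tnfaip3. A letter match is a description and shows no binding.

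Macrophage markers stood at like levels in both sets. The summed level of 8 macrophage markers (Adgre1, Csf1r, Fcgr1, Mertk, Cd68, Lyz2, C1qa and C1qb) was 49455, 51854, 61257 and 70530 CPM in Cxcl1/Cxcl2-high cells and 41573, 52341, 61763 and 70615 CPM in chemokine-negative cells. Lyz2 supplied most of the sum in Cxcl1/Cxcl2-high cells, with 8249, 80197, 162116 and 297970 UMIs. Taken gene by gene, the median log2 ratio of the 8 markers was 0.16, -0.05, 0.05 and 0.04. In both sets here and in what follows, Cxcl1 and Cxcl2 UMIs were left out of the totals. The 7 markers of large peritoneal macrophages, among them Gata6 and Timd4, summed to 6083, 5441, 8542 and 7917 CPM against 4812, 5937, 8418 and 8308 CPM. Prg4 and Alox15, also on this list, supplied most of that sum in Cxcl1/Cxcl2-high cells. Gata6 was at 65.8, 81.1, 110 and 120 CPM in Cxcl1/Cxcl2-high cells and at 48.8, 61.0, 130 and 136 CPM in chemokine-negative cells. After thinning to 3000 UMIs, 26.3, 15.0, 28.3 and 27.4% of the Cxcl1/Cxcl2-high cells had a Gata6 UMI, against 11.6, 15.1, 29.8 and 31.4% (unthinned 35.0, 52.5, 68.8 and 68.0% against 22.4, 41.4, 71.8 and 69.6%). B cells had 0.357, 0, 0.392 and 2.03% after thinning. Markers of small peritoneal or monocyte-derived macrophages summed to 9475, 1423, 945 and 1370 CPM against 11047, 1233, 1136 and 822 CPM. Most of each sum in Cxcl1/Cxcl2-high cells came from the gene Retnla, with 1878, 2409, 2810 and 6348 UMIs. The top cell alone held 792, 857, 364 and 942 of these, so the sums describe this gene more than a lineage. Another of the markers, Ccr2, the receptor that brings monocytes into tissue, was at 136, 78.0, 9.87 and 39.3 CPM against 266, 137, 26.8 and 42.2 CPM.

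Markers of other lineages were scarce in the Cxcl1/Cxcl2-high cells. The 8 neutrophil markers summed to 96.6 to 136 CPM over the 4 libraries, against 97.2 to 142 CPM in chemokine-negative cells, with Ly6g at 0 UMIs in all 4 libraries. The gene Csf3r, with 27, 191, 274 and 455 UMIs in Cxcl1/Cxcl2-high cells, supplied most of this sum and of the 6-marker sum below. These sums thus describe Csf3r more than a lineage. Sums for the 8 T cell, 5 natural killer cell, 5 eosinophil and 8 mesothelial and stromal markers did not exceed 4.70 CPM, and Cd3d, Cd3e and Cd3g were at 0 by the rule. The 8 B cell markers reached 141 CPM in library 1, where chemokine-negative cells had 173, and stood between 6.91 and 21.7 CPM in the others. Mast cell markers summed to 1.55 to 42.3 CPM against 2.73 to 81.3, dendritic cell markers to 0.517 to 12.6 CPM against 3.96 to 38.9, and endothelial markers to 0.517 to 9.39 CPM against 0.773 to 2.77. Of the platelet and erythroid markers only Pf4, which macrophages transcribe as well, was above 20 CPM. The rule for cells used Adgre1, Cd79a, the Cd3 genes, S100a8 and S100a9, so these support nothing about the label. Without them, 7 macrophage markers summed to 48618, 51286, 60270 and 69652 CPM in Cxcl1/Cxcl2-high cells of libraries 1 to 4, 7 B cell markers to 141, 21.7, 8.97 and 6.91 CPM, and 6 neutrophil markers to 127, 104, 82.5 and 90.2 CPM. Of the 7 macrophage markers Fcgr1 alone was at 0 UMIs, in library 1.

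The word inflammatory rests on the genes Cxcl1, Cxcl2, Il6, Acod1, Ccrl2 and Nfkbiz, and the last 4 of these were not used to choose the cells. They were picked with earlier results of these data known, so their levels describe the cells and are no independent support for the word. Nfkbiz encodes a nuclear NF-kB cofactor that helps to switch on secondary genes such as Il6. Its level was 423, 85.8, 90.9 and 143 CPM in Cxcl1/Cxcl2-high cells of libraries 1 to 4 and 41.1, 31.6, 30.9 and 27.6 CPM in chemokine-negative cells. Ccrl2, an atypical receptor that binds chemerin, was at 108, 37.7, 24.2 and 71.9 CPM against 6.79, 7.87, 8.01 and 10.8 CPM. Acod1, the enzyme that makes itaconate in activated macrophages, was at 28.2, 28.4, 5.08 and 35.1 CPM against 0.657, 7.67, 1.05 and 3.25 CPM. All 4 genes, Il6 included, were higher in the Cxcl1/Cxcl2-high set of every library, but some of these levels rest on few cells. In library 1 all 6 Acod1 UMIs came from 1 cell, and 1 cell held 32 of the 90 Nfkbiz UMIs. In library 3 the 17 Acod1 UMIs came from 9 cells. The 4 genes were nevertheless not seen in every cell: 1, 41, 69 and 99 cells, or 5, 33.6, 33.7 and 29.4%, had no UMI of any of them. In chemokine-negative cells that share was 71.4, 62.2, 63.3 and 63.8%. After thinning to 3000 UMIs it was 57.9, 72.5, 70.7 and 58.6% in Cxcl1/Cxcl2-high cells against 86.6, 87.5, 89.2 and 88.7%. All 4 genes together were seen in 1, 4, 2 and 9 Cxcl1/Cxcl2-high cells (1, 0, 1 and 1 after thinning) and in no chemokine-negative cell. Depth bears on such counts, and after thinning to 3000 UMIs Ccrl2 was detected in 15.8, 9.17, 5.37 and 17.3% of Cxcl1/Cxcl2-high cells against 1.90, 2.04, 2.29 and 2.58% (unthinned 25, 25.4, 24.4 and 37.7% against 4.81, 8.64, 9.32 and 11.7%). In B cells the thinned share of Ccrl2 was 0.179 to 0.813%.

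A rule of size was used to name genes across the transcriptome. A gene had to reach 20 CPM in the higher set and differ by a log2 ratio of at least 1, in 1 direction, in each of the 3 libraries with 30 or more Cxcl1/Cxcl2-high cells, which are libraries 2, 3 and 4. Of 4789 genes at that level, 11 other than the chemokines were higher (0.23%) and none was lower (0.0%). All 11 were also more than 1.5 log2 units higher in library 1. A looser reading, the same sign in libraries 2, 3 and 4 at any size, held for 20.6% of genes as higher and 17.0% as lower, so most of the transcriptome showed no common direction. Without cells of 20 or more chemokine UMIs, 3 of the 11 genes (Ier3, Tlr2 and Pde4b) met the rule, and without library 3 the count was 17, the 11 and 6 more (Ccl3, Acod1, Nr4a1, Gadd45a, Sdc4 and Marcksl1). Reading each library alone, 370 genes passed in library 1, where the 20 cells give wide counting intervals, and 100, 14 and 34 in libraries 2, 3 and 4 (5.76, 1.77, 0.272 and 0.68% of genes at 20 CPM there). Genes lower by as much numbered 323, 14, 1 and 0 in libraries 1 to 4 (5.03, 0.247, 0.0194 and 0.0%).

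Of the 11 genes, 3 encode proteins that restrain or modulate NF-kB. They lay at both ends of the set: Tnfaip3 had the largest log2 ratio in libraries 2, 3 and 4, and Nfkbie, at 1.23, the smallest median over them. Tnfaip3 encodes A20, a ubiquitin-editing enzyme that shuts NF-kB signalling off. It was at 174, 41.8, 30.5 and 46.6 CPM in Cxcl1/Cxcl2-high cells and 11.7, 5.07, 3.23 and 4.28 CPM in chemokine-negative cells of libraries 1 to 4. The log2 ratios were 3.91 (exact 95% counting interval 3.34 to 4.42), 3.05 (2.67 to 3.41), 3.24 (2.87 to 3.61) and 3.44 (3.17 to 3.72). These intervals overlap between libraries 2, 3 and 4, and Tnfaip3 UMIs were spread over 48, 61 and 134 cells there, with at most 8 in any cell. The log2 ratios of Nfkbiz were 3.37, 1.44, 1.56 and 2.37. The counting interval of library 4 (2.24 to 2.5) lay above those of libraries 2 and 3 (1.20 to 1.67 and 1.37 to 1.73). These intervals leave out the spread between cells and between animals. Nfkbie, which encodes the inhibitor IkB-epsilon, was at 56.4, 22.2, 20.6 and 29.0 CPM against 15.0, 10.6, 8.85 and 11.0 CPM. The inhibitor IkB-alpha is encoded by Nfkbia, the most abundant of these transcripts, at 864, 467, 523 and 670 CPM against 148, 264, 299 and 224 CPM. Its log2 ratios of 2.55, 0.82, 0.81 and 1.58 left it outside the rule in libraries 2 and 3.

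Sensors and adhesion proteins at the cell surface formed the next group. Tlr2, a receptor for bacterial lipoproteins, was at 305, 87.3, 70.9 and 96.3 CPM in Cxcl1/Cxcl2-high cells against 45.9, 28.7, 22.0 and 30.5 CPM. Its log2 ratios in libraries 2, 3 and 4 were 1.61, 1.69 and 1.66, the closest agreement between libraries of the 11 genes. Tlr4, the receptor for bacterial lipopolysaccharide, had log2 ratios of 0.48, -0.31, -0.06 and -0.07. Icam1, an adhesion molecule for leukocyte integrins, was at 113, 30.0, 35.3 and 69.1 CPM against 9.78, 12.7, 9.53 and 10.8 CPM. Its log2 ratio was 1.25 (0.82 to 1.63) in library 2, 1.89 (1.58 to 2.18) in library 3 and 2.67 (2.48 to 2.87) in library 4. The counting intervals of libraries 2 and 4 did not overlap. Log2 ratios of Ccrl2 were 4.02, 2.27, 1.60 and 2.73 in libraries 1 to 4.

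Immediate early genes gave 2 of the 11. Ier3, a stress-induced regulator of cell survival, was at 268, 121, 120 and 201 CPM in Cxcl1/Cxcl2-high cells against 35.1, 31.6, 45.1 and 49.2 CPM. Egr1, a zinc finger transcription factor, was at 244, 68.2, 43.4 and 27.2 CPM against 15.5, 13.4, 9.92 and 11.2 CPM. Few cells carried the Egr1 transcripts: 3, 19, 30 and 39 cells had any, and 1 cell alone held 39 of the 52 UMIs in library 1 and 54 of the 145 in library 3. Fos and Jun, whose proteins together form the transcription factor AP-1, had log2 ratios of 0.46 to 0.60 and 0.52 to 0.64 in libraries 2, 3 and 4.

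The last 3 genes were on none of the lists drawn up for the pathways. Pde4b, a phosphodiesterase that breaks down cyclic AMP, was at 150, 50.6, 47.3 and 74.2 CPM against 22.5, 18.5, 17.2 and 19.8 CPM. Ets2, a transcription factor, was at 113, 43.4, 39.8 and 45.4 CPM against 29.0, 19.1, 15.5 and 19 CPM. Rab20, a small GTPase of phagosome traffic, was at 42.3, 35.6, 35.0 and 49.0 CPM against 12.6, 13.9, 17.5 and 17.6 CPM, and its log2 ratio of 1.01 in library 3 lay at the edge of the rule.

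**Figure D2:**
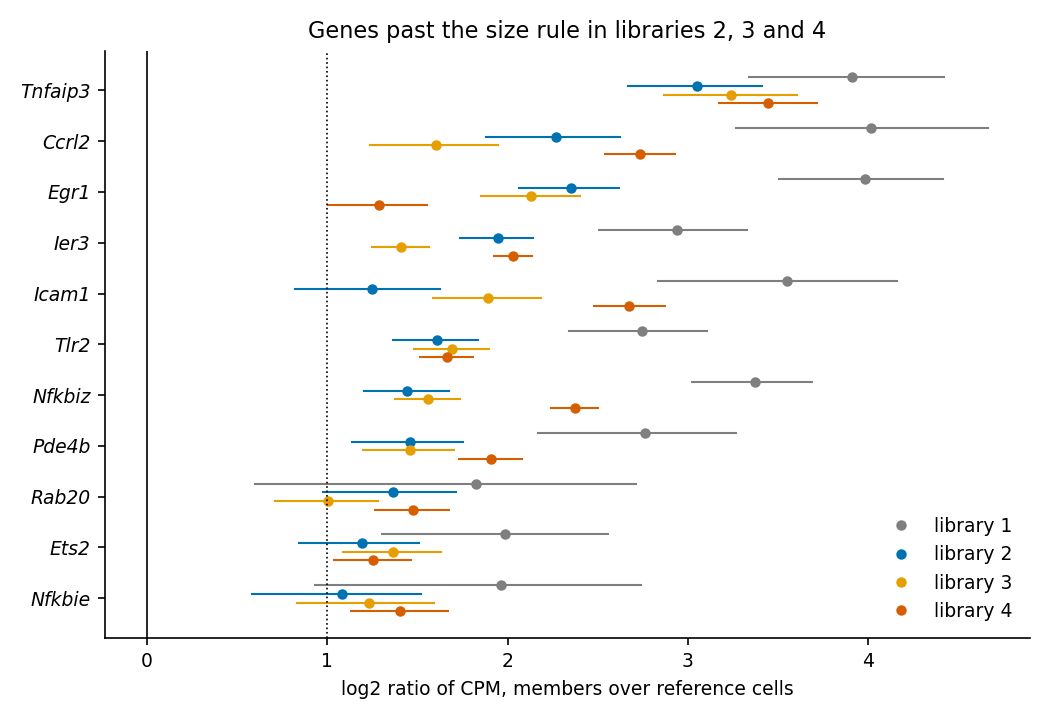
Log2 ratios of CPM (Cxcl1/Cxcl2-high over chemokine-negative cells) for the 11 genes past the size rule in libraries 2, 3 and 4, with exact 95% counting intervals as lines and the threshold of 1 dotted. Library 1, with 20 cells, did not enter the rule and lies highest for each gene, and Tnfaip3 has the largest ratio in libraries 2, 3 and 4.

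The cytokine genes Il6 and Tnf had larger log2 ratios than any of the 11 genes in each library, 3.81 to 6.94 and 4.36 to 7.98, but their transcripts came from few cells. Il6, a cytokine of the acute phase response, was at 146, 18.1, 10.5 and 25.3 CPM in Cxcl1/Cxcl2-high cells against 1.17, 0.929, 0.514 and 1.8 CPM, and stayed outside the rule because 2 libraries were under 20 CPM. Its UMIs came from 3, 18, 19 and 54 cells, and in library 1 a lone cell held 27 of the 31. After thinning to 3000 UMIs, 5.26, 3.33, 2.93 and 4.76% of Cxcl1/Cxcl2-high cells had an Il6 UMI against 0.196, 0.230, 0.0871 and 0.515% of chemokine-negative cells (unthinned 15.0, 14.8, 9.27 and 16% against 0.842, 1.07, 0.690 and 2.15%). In B cells the thinned share was 0.179, 0, 0 and 0%. Tnf was at 117, 6.20, 5.98 and 12.4 CPM against 0.438, 0.162, 0.288 and 0.337 CPM. Its UMIs were found in 4, 8, 10 and 30 cells.

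Chemokines other than the chosen pair differed between libraries. Ccl3, which attracts monocytes and lymphocytes, was at 42.3, 20.7, 9.87 and 25.5 CPM in Cxcl1/Cxcl2-high cells against 2.48, 1.68, 3.03 and 3.39 CPM. Ccl4 was at 32.0 CPM in library 2, where 1 cell held 35 of the 62 UMIs, and at 0.897 CPM in library 3 against 1.17 CPM in chemokine-negative cells. Ccl2, which attracts monocytes, was at 28.4 CPM in library 2, where only 3 cells carried its 55 UMIs, and at 2.09 and 2.37 CPM in libraries 3 and 4. Il1b was found in 1, 4, 3 and 15 Cxcl1/Cxcl2-high cells and Cxcl3, a close relative of Cxcl2, in 0, 1, 3 and 6. Ptgs2, the inducible cyclooxygenase, was found in 2, 2, 1 and 3 cells, and the 17 UMIs in library 3 all came from 1 cell. Il10, an anti-inflammatory cytokine, was at 28.2, 9.30, 0.897 and 3.16 CPM against 1.17, 0.303, 0.123 and 0.218 CPM. Each of these transcripts was found in a minority of the Cxcl1/Cxcl2-high cells of every library, so a level over all of them describes few cells.

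Lists of related genes place these single genes in their pathways. The lists were chosen with earlier results of these data known, so counts on them are a description. Of 22 genes on the list of NF-kB subunits and feedback inhibitors, 14 were at 20 CPM in libraries 2, 3 and 4. Of these 14, 3 passed the rule as higher (Nfkbie, Nfkbiz and Tnfaip3) and 12 had a positive log2 ratio in all 3 libraries. Over all 4789 genes at 20 CPM, 0.23% passed as higher and 20.6% had a positive log2 ratio in all 3 libraries. The median log2 ratio of the NF-kB list was 0.78, 0.25, 0.38 and 0.72 in libraries 1 to 4, beside medians over all genes of -0.02, 0.04, 0.00 and -0.01. Among the subunit genes, Nfkb1 had log2 ratios of 0.49, 0.17, 0.11 and 0.09, and Nfkb2 of 1.91, 0.62, 0.77 and 0.86. Those of Rel were 0.69, 0.25, 0.14 and 0.64, and those of Rela 0.34, -0.03, 0.29 and 0.18. Relb, under 20 CPM in libraries 2 and 3, had 1.04, 0.60, 0.53 and 0.94. None of these subunit genes met the rule. Of the 14 inflammatory surface proteins at that level, 2 passed (Ccrl2 and Icam1), with list medians of 1.05, 0.17, 0.31 and 0.29. Of the 13 immediate early genes, 2 passed (Egr1 and Ier3), with medians of 0.91, 0.32, 0.14 and 0.31. Among 13 genes of Toll-like receptor signalling, Tlr2 alone passed, and the medians were 0.15, 0.07, 0.11 and 0.05. No gene of the other 21 lists passed in either direction, among them 9 inflammasome genes, 9 inflammatory enzymes and secreted effectors, 8 heat shock genes, 14 genes of glycolysis and hypoxia, 11 of efferocytosis and 19 of large peritoneal macrophage identity. Medians for the last of these were 0.49, 0.21, 0.03 and -0.04. Genes induced by type I interferon had medians of -0.12, -0.37, 0.01 and 0.05 over 6 genes.

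**Figure D3:**
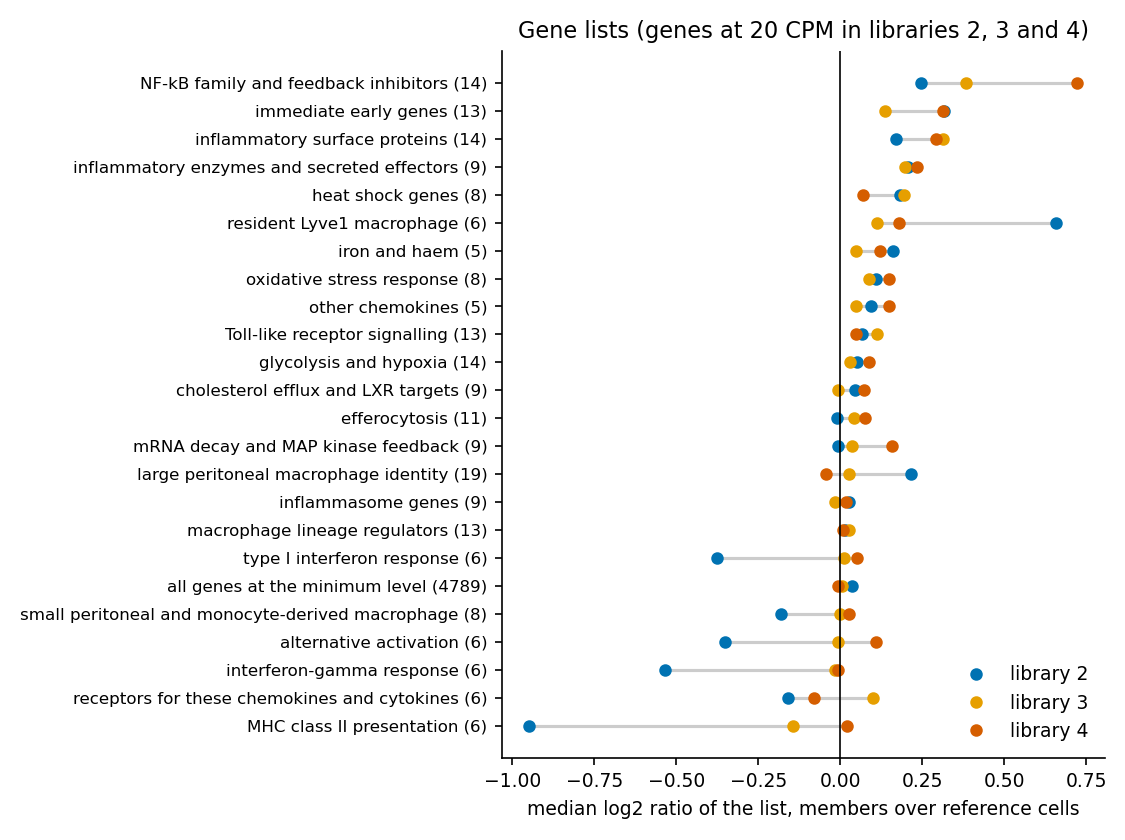
Median log2 ratio of CPM (Cxcl1/Cxcl2-high over chemokine-negative cells) of each gene list in libraries 2, 3 and 4, with the number of genes at 20 CPM in parentheses and all 4789 genes as a row of their own. The NF-kB list lies highest in libraries 3 and 4, at 0.38 and 0.72. In library 2 it lies at 0.25, below the resident Lyve1 macrophage list at 0.66 and the immediate early genes at 0.32, and library 2 stands apart from libraries 3 and 4 for MHC class II and interferon genes.

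Adgre1-positive cells were split by their Cxcl1 plus Cxcl2 UMIs into those with 0, 1 to 2, 3 to 4, 5 to 9, 10 to 19, and 20 or more. Each of the 11 genes was highest in the class of 20 or more in libraries 2, 3 and 4, as were 143 of all 4789 genes (2.99%). Because the 11 were chosen on a contrast of the same chemokine UMIs, their levels by class are a description. Tnfaip3 stood at 5.07, 10.5, 25.2, 26.8, 38.1 and 95.8 CPM over these classes in library 2, at 3.23, 6.36, 12.9, 16.2, 24.4 and 99.7 CPM in library 3, and at 4.28, 8.21, 15.8, 28.1, 44.8 and 75.9 CPM in library 4. Each step was upward, also among cells below the cut of 5 UMIs. Nfkbiz stood at 31.6, 34.6, 45.3, 51.6, 87.8 and 188 CPM in library 2 and at 27.6, 34.7, 53.3, 74.8, 101 and 285 CPM in library 4. For Ccrl2 the step was mainly at the top, with 34.8, 23.0 and 55 CPM at 10 to 19 UMIs and 98.9, 63.8 and 159 CPM at 20 or more in libraries 2, 3 and 4. Nfkbia levelled off at 558 and 587 CPM over these last classes in library 2 and went on from 573 to 1043 CPM in library 3 and from 600 to 1021 CPM in library 4. Il6 was at 2.27 CPM in cells with 5 to 9 UMIs and at 69.1 CPM in cells with 20 or more in library 4. In library 2 those levels of Il6 were 16.9 and 15.4 CPM. Gata6 and Adgre1 showed no such course in libraries 3 and 4, with Adgre1 between 864 and 946 CPM in all classes of library 4. In library 2 Adgre1 was at 508 to 576 CPM in the lower classes and 788 CPM at 20 or more UMIs.

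**Figure D4:**
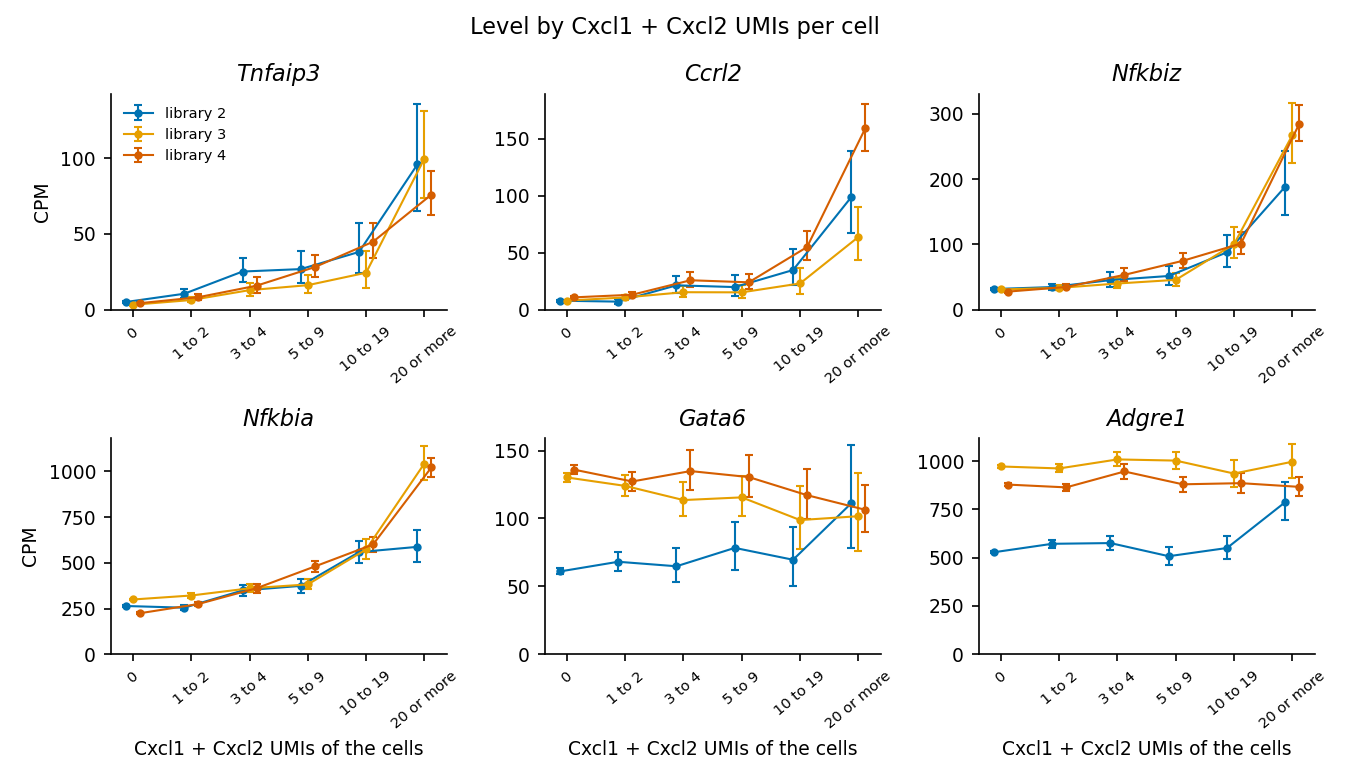
Level (CPM) of 6 genes in Adgre1-positive cells split by their Cxcl1 plus Cxcl2 UMIs, in libraries 2, 3 and 4, with exact 95% Poisson intervals. Tnfaip3, Ccrl2, Nfkbiz and Nfkbia are highest at 20 or more UMIs, where Tnfaip3 is at 75.9 to 99.7 CPM, and the macrophage genes Gata6 and Adgre1 show no common course.

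The top class held 1, 20, 34 and 96 cells of libraries 1 to 4, against 11, 66, 122 and 152 with 5 to 9 UMIs. Median depth at 5 to 9, 10 to 19, and 20 or more chemokine UMIs was 14499.5, 14781.5 and 15185 UMIs in library 2, 15482.5, 13114 and 14779.5 UMIs in library 3, and 13542, 14171 and 14365.5 UMIs in library 4.

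Cells with both chemokines were compared with cells that had Cxcl2 alone. In library 4, Ccrl2 was at 114 CPM in 128 cells with both (exact Poisson 95% interval 99.6 to 130) and at 46.2 CPM in 208 cells with Cxcl2 alone (38.9 to 54.3). Nfkbiz was at 220 CPM against 96.2 CPM there, and Nfkbia at 931 CPM against 508 CPM. Library 3 showed the same order, with Nfkbiz at 180 against 68.0 CPM, Nfkbia at 798 against 452 CPM and Ccrl2 at 48.3 against 18.0 CPM. In library 2 it did not hold for these genes. Nfkbiz was at 81.6 against 86.4 CPM and Nfkbia at 462 against 468 CPM. Ccrl2 was at 11.7 CPM (2.40 to 34.1) in 19 cells with both against 41.7 CPM (32.5 to 52.7) in 103 with Cxcl2 alone. Other genes were mixed there. Higher in cells with both were Ier3 (171 against 114 CPM), Tnfaip3 (50.5 against 40.5) and Tlr2 (97.1 against 85.8). Lower were Il6 (15.5 against 18.5), Acod1 (15.5 against 30.4) and Icam1 (7.77 against 33.4). The Poisson intervals overlapped for each. Cells with both also had more chemokine UMIs in total, with medians of 18.5 against 8 in library 4, 13.5 against 7 in library 3 and 11 against 8 in library 2.

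Library 2 differed from libraries 3 and 4 in what accompanied the chemokines. Its Cxcl1/Cxcl2-high cells had cell cycle markers at a sum of 600 CPM against 221 CPM in chemokine-negative cells, while libraries 3 and 4 had 230 against 179 and 161 against 149 CPM. Mki67, a marker of dividing cells, was at 99.2 against 24.6 CPM and Top2a, a DNA topoisomerase of dividing cells, at 142 against 33.0 CPM in library 2. By class, Top2a stood at 117 CPM already in cells with 1 to 2 chemokine UMIs and at 21.6 CPM in those with 20 or more. Of the genes for antigen presentation on MHC class II, H2-Ab1 was at 1408 against 2705 CPM and Cd74 at 3770 against 7335 CPM in library 2, and their log2 ratios of -0.94 and -0.96 compare with 0.03 and 0.02 in library 4. The median over the 6 class II genes at 20 CPM was -0.95 in library 2, -0.14 in library 3 and 0.02 in library 4. Vsig4, a complement receptor of resident macrophages, was at 129 against 43.2 CPM in library 2, where 9 cells carried it, and the hyaluronan receptor gene Lyve1 at 56.8 against 12.1 CPM, where 14 cells did and 1 of them held 42 of the 110 UMIs. The Lyve1 ratio was in the opposite direction in libraries 3 and 4, with 8.97 against 16.9 and 12.6 against 18.7 CPM. Whether dividing cells or cells of another kind took part in the library 2 values was not tested; when cells with a UMI of Mki67, Top2a, Birc5, Ccnb1 or Cdk1 were left out, 13 genes passed the size rule, 10 of them among the 11.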

How the data were processed

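Per the file headers, Cell Ranger 5.0.1 produced the UMI counts that the authors deposited, 1 matrix of whole numbers with 31253 genes in rows and 26811 barcodes in columns. Also named, in the submitters' processing notes, are CASAVA 1.8, Seurat and the mm10 build. The sources used here do not state counting settings, cell calling or removal of free RNA. Cells, limits and lists (25 gene lists, 15 marker lists) were chosen with earlier results of these data known. Counts were summed per library over Cxcl1/Cxcl2-high and chemokine-negative cells, divided by totals without Cxcl1 and Cxcl2, and compared as log2 ratios with a prior count of 0.5. Intervals are exact at 95% and cover counting error only, not the spread between cells or animals. No p-value was computed, since cells are not replicates and each library stands alone. Genes named were the largest and smallest ratios past the size rule, genes of the lists at 20 CPM in either set, and fixed genes. Il1b, Cxcl3, Gadd45a, Sdc4, Igkc and Ly6d fall outside that rule and were named after their values were seen. No doublet caller was run, and instead the lymphocyte and neutrophil limits and an upper UMI limit (98th percentile) were used. The size rule was tried on simulated Poisson counts without variation between cells. Transcripts here were unevenly spread over cells, so that trial cannot show how well the rule works on these data. Python 3.11.15, numpy 2.4.6, scipy 1.17.1 and pandas 2.3.3 were used.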

Additional observations from a re-analysis of the deposited data

Results flagged for a closer look

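Some barcodes outside the chosen set also held 5 or more Cxcl1 and Cxcl2 UMIs. Among Adgre1-positive cells, 60 had that many and were removed by the lymphocyte and neutrophil limits, 10, 11, 26 and 13 in libraries 1 to 4. Of these, 10, 11, 22 and 11 had a Cd79a UMI. In library 1 that is 10 cells beside 20 kept ones. With those limits lifted, the shares of Adgre1-positive cells were 1.12, 2.62, 4.86 and 6.47% in libraries 1 to 4. B cells without Adgre1 never reached 5 UMIs. Whether the 60 are doublets was not tested.

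Over the mitochondrial limit lay 27 barcodes with 5 or more chemokine UMIs, 3 of 1936, 1 of 495, 9 of 296 and 14 of 495 in libraries 1 to 4. The shares in libraries 3 and 4 were 3.04% and 2.83%. Among barcodes with fewer than 500 genes there was none in 707, 247, 847 and 924.

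Without an Adgre1 UMI, 5 cells had 5 or more chemokine UMIs, 0, 1, 2 and 2 by library. Of these, 0, 1, 2 and 0 had 20 or more UMIs of the neutrophil genes S100a8 and S100a9, and 0, 0, 1 and 2 had a UMI of the macrophage gene Csf1r.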

How the results depend on the processing

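No paired analysis was possible because every label carries replicate number 1, the matrix ties no library to a sample, and the results come from no test. The 11 higher genes became 7 with a cut of 3 chemokine UMIs, 21 with a cut of 10, 18 when cells were chosen after thinning to 5000 UMIs, 21 at a minimum of 5 CPM and 3 at 50 CPM. They numbered between 11 and 17 when 1 of libraries 2, 3 and 4 was left out (17 without library 3). Of 5 settings added after seeing the data, 2 moved the count by over 1.5 times: 3 genes passed without cells of 20 or more UMIs, and 6 passed against cells with 1 or 2 chemokine UMIs. In these settings the list genes among them numbered 14 (cut of 10), 16 (5 CPM), 3 (50 CPM), 2 (without cells of 20 or more) and 5 (against cells with 1 or 2), beside 8. Without the lymphocyte and neutrophil limits on chemokine-negative cells, 6 genes were lower (Cd79a, Cd79b, Igkc, Iglc2, Ighm and Ly6d), all B cell genes that the limits remove by construction. With a cut of 3 the shares were 4.87, 8.56 and 9.83% in libraries 2, 3 and 4, with a cut of 10 they were 0.507, 1.21, 1.89 and 3.62% in libraries 1 to 4, and after thinning to 5000 UMIs they were 3.30 and 5.04% in libraries 3 and 4. Under each cut the libraries kept their order. Tlr2 and Ier3 passed in 23 of 23 settings, Rab20 in 14 and Nfkbie in 15. Leaving out 1 library or lowering the minimum to 5 CPM only relaxes the rule, so the 11 genes pass there by construction. Over the 19 settings that could remove a gene, Tlr2 and Ier3 passed in 19, Rab20 in 10 and Nfkbie in 11. The median ratio of each of the 11 genes stayed positive in all 23. With library 1 included in the rule, the same 11 genes passed. Library 1, with 20 cells and 213145 UMIs, limits what can be read there.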

Other observations

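Genes of resident and alternatively activated macrophages varied in the Cxcl1/Cxcl2-high cells from library to library. Pf4, a chemokine gene that macrophages as well as platelets transcribe, was at 1517, 3016, 4360 and 4218 CPM in these cells of libraries 1 to 4 and at 1156, 1308, 3906 and 3829 CPM in chemokine-negative cells. The B cell chemokine gene Cxcl13 was at 531 against 247 CPM in library 2, where 19 cells carried it and 1 of them held 283 of 1028 UMIs, and at 3432 against 3292 CPM in library 3. Retnla, a marker of alternative activation, was at 1253 against 703 CPM in library 4, with its UMIs in 128 cells, and at 840 against 1015 CPM in library 3. Chil3, another such marker, was at 1190 against 2793 CPM in library 2 and at 857 against 536 CPM in library 3, so these libraries lay on opposite sides. Lcn2, an iron-binding protein of acute inflammation, was at 40.3 against 19.1 CPM in library 4 and at 4.79 against 11.3 CPM in library 3. None of these genes met the size rule.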
